A study of Homo sapiens with 24 samples.

Results

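Transcripts of 45 genes were followed, 17 of epithelial cell junctions and the epithelial state (CDH1 to ESRP2) and 28 of the mesenchymal state (VIM to TIMP1), chosen by symbol from textbook roles. All 45 were listed among the 18889 genes of the deposited table. The study examined how hyperglycemia alters gene expression in established lines from human breast cancers that carry the estrogen receptor (ER+), and 3 are used here: HCC1500, MDA-MB-175 and ZR-75-30. Cells conditioned in low-glucose medium were kept without serum for 48 hours in 5 mM glucose (low, the control) or 25 mM glucose (high), with 4 cultures in each of the 6 groups and RNA-Seq as the readout. Each line is a single cancer-derived line, and an osmolarity control (mannitol) is not labelled for these cultures.

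Epithelial cells hold to one another through adherens junctions built on E-cadherin (CDH1), tight junctions built on claudins and occludin, and desmosomes that anchor keratin filaments. In an epithelial-to-mesenchymal transition (EMT), factors of the ZEB, SNAI and TWIST families repress junction genes by binding E-box sequences, while genes such as those for vimentin, N-cadherin (CDH2) and fibronectin rise. CTGF and CYR61 are secreted matrix proteins whose genes are classical targets of YAP and TEAD factors.

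Values are normalized read counts as deposited, which are whole reads divided by 1 factor per culture. Cultures had between 9140024 and 17998819 reads, and 3 reads, taken as the detection floor, were worth between 0.953 and 2.29 normalized counts. A gene was called too weak to measure in a line where it averaged under 10 reads in both conditions. The labelled cell type was checked by its markers, and all 7 luminal markers (ESR1, GATA3, FOXA1, KRT8, KRT18, KRT19 and EPCAM) averaged over 10 reads in every group. Replicate 3 of HCC1500 at high glucose stood apart: 24.7% of its genes lay over 1 log2 unit from the other cultures of its group, against at most 1.42% in any of the others. HCC1500 glucose changes are therefore given with and without it. The labels do not say whether the 4 cultures of a group were started independently, so that p-values measure the spread between these cultures.

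Of the 45 genes, 28 could be measured in all 3 lines and 5 in none. All 17 epithelial genes were measurable in MDA-MB-175 and 16 in each of the other lines, the exception being CLDN1 (claudin 1), which was weak in ZR-75-30 and listed at 0 in all 8 HCC1500 cultures. Among the mesenchymal genes, MDA-MB-175 allowed 20 of 28 to be measured, ZR-75-30 15 and HCC1500 18. ZEB2, TWIST2 and COL4A1 (a basement membrane collagen) averaged under 3 reads in every line, and TWIST2 was listed at 0 in all 24 cultures. LOXL2, a collagen crosslinking enzyme, and the gelatinase MMP2 averaged under 10 reads everywhere, with values of at most 7.46. Where a gene was weak, its absence cannot be told from a level below this depth.

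**Figure D1:**
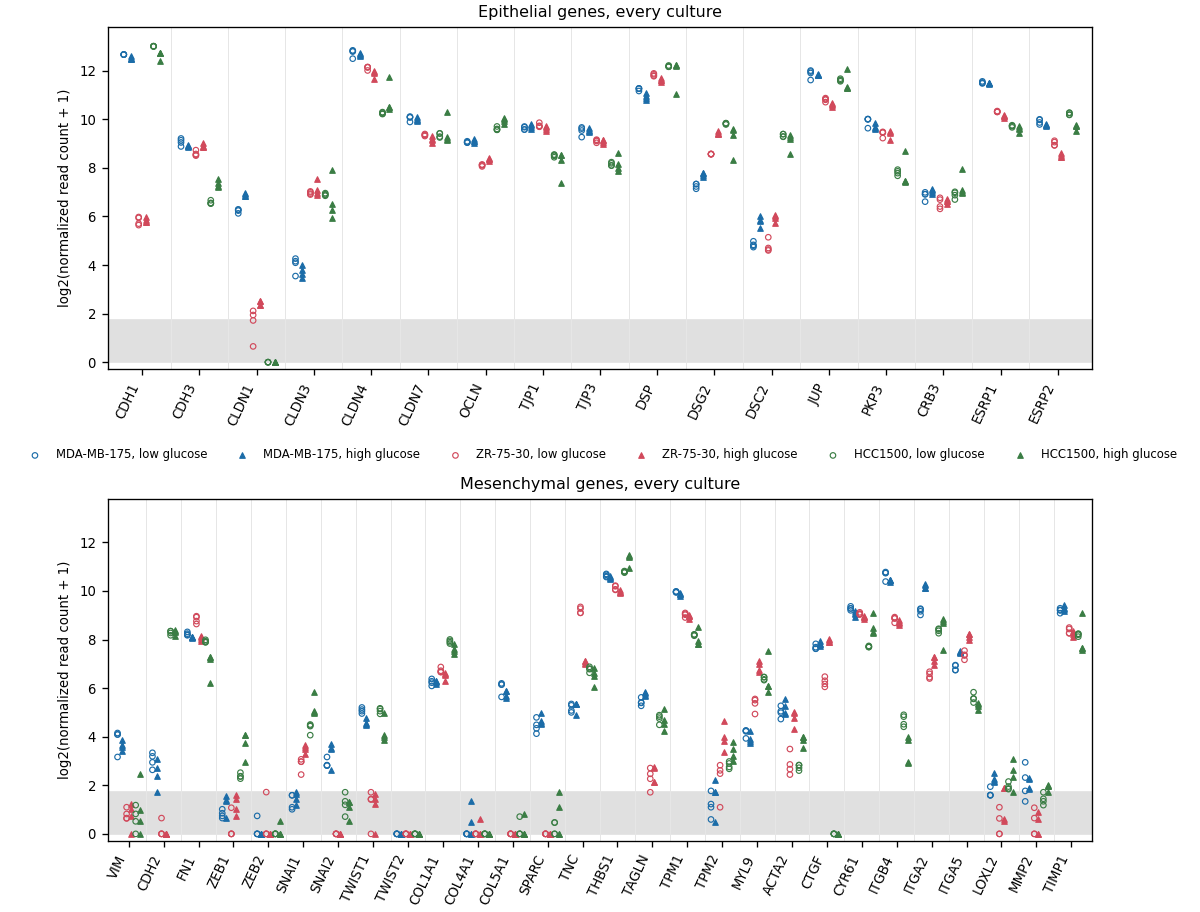
The vertical axis is log2(normalized read count + 1) in each of 24 cultures for the 17 epithelial (top) and 28 mesenchymal genes (bottom), with open circles for low and filled triangles for high glucose, a colour for each line, and a grey band up to the largest value that 3 reads stood for (2.29). CDH1 in ZR-75-30 (49.0 to 62.0) lay far under the other lines, and VIM, ZEB2, TWIST2, COL4A1, LOXL2 and MMP2 lay in or near the band in most cultures.

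More of the genes differed between lines than between glucose conditions within a line. At low glucose, limma (moderated linear models on log2 values, adjusted p under 0.05) called 16 of 17 epithelial and 24 of 25 tested mesenchymal genes different between ZR-75-30 and MDA-MB-175, where 73.1% of all genes tested were called. ZR-75-30 was the lower line for 12 of the epithelial and 17 of the mesenchymal genes (44.3% of all genes). For HCC1500 against MDA-MB-175 the counts were 16 of 17 and 22 of 25, beside 80.6% of all genes (9 and 14 of them lower in HCC1500, beside 38.4%), and for HCC1500 against ZR-75-30 they were 15 of 17 and 20 of 25, beside 80.4%. The median epithelial difference was -0.51 on the log2 scale for ZR-75-30 minus MDA-MB-175 and the median mesenchymal one -1.25, with -0.18 over all genes. Against MDA-MB-175, HCC1500 had medians of -0.26 and -0.69 with 0.063 over all genes. Set against ZR-75-30, HCC1500 had medians of -0.011 and 0.57 with 0.25 over all genes.

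CDH1 (E-cadherin; chr16:68771195-68869440 in GRCh37, plus strand) set ZR-75-30 apart. At low glucose its normalized counts were 6512, 6487, 6503 and 6492 in MDA-MB-175, 8263, 8239.6, 8221 and 8166 for HCC1500 and only 60.4, 62, 49 and 51.2 in ZR-75-30. No ZR-75-30 culture came near the others: the mean was 117-fold below MDA-MB-175 (log2 difference -6.85 ± 0.059, adjusted p = 9e-19) and 148-fold below HCC1500. Per kilobase of exon, CDH1 averaged 1353 normalized counts in HCC1500 and 9.16 in ZR-75-30, whereas P-cadherin (CDH3) had 14.8 and 60.0 per kilobase, so that the order of the cadherins was turned around in ZR-75-30. CDH1 shares 347 exon bases with another annotated gene, and whether counting used strand is not given in the sources used here.

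CDH2 (N-cadherin), the mesenchymal cadherin, set HCC1500 apart. It reached 308, 325, 324 and 288 in HCC1500 at low glucose, against 5.22, 6.7, 9.11 and 8.14 in MDA-MB-175 and 0, 0.569, 0 and 0 in ZR-75-30. The cultures of HCC1500 stood clear of all others, with a mean 42.7-fold over MDA-MB-175 (log2 difference 5.26 ± 0.20, adjusted p = 2.4e-12). HCC1500 thus carried both E-cadherin and N-cadherin transcripts. VIM (vimentin), the standard mesenchymal filament, was scarce throughout: at low glucose HCC1500 had 0, 1.27, 0.767 and 0.431, ZR-75-30 0.554, 0.569, 1.14 and 0.763 and MDA-MB-175 16.1, 16.1, 7.97 and 16.8. At low glucose vimentin averaged over the floor in MDA-MB-175 alone, and it shares 1275 exon bases with other annotated genes.

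Several further genes belonged almost wholly to 1 or 2 lines. COL5A1, a fibrillar collagen chain, was 69.8, 72.4, 70.03 and 48.8 in low glucose MDA-MB-175 cultures and listed at 0 in all 8 ZR-75-30 cultures, at least 28.5-fold lower against a floor of 3 reads in 1 culture. SPARC, a matrix-binding glycoprotein, showed the same layout, with 16.5 to 26.8 in MDA-MB-175 and 0 in ZR-75-30. CTGF was listed at 0 in all 8 HCC1500 cultures but stood at 226, 197, 205 and 196 in MDA-MB-175 at low glucose, so that HCC1500 was at least 159-fold lower by the same floor. CLDN1 in HCC1500 was at least 57.5-fold lower than the MDA-MB-175 values of 74.6, 76.4, 68.9 and 77.3. ITGB4, the hemidesmosome integrin, averaged 24.6 ± 4.19 (SD, n = 4) in HCC1500 against 1629 ± 195 in MDA-MB-175 and 458 ± 31.6 in ZR-75-30. DSC2 (desmocollin 2) ran the other way, at 647 ± 26.9 in HCC1500 against 27.6 ± 2.08 in MDA-MB-175 cultures and 26.6 ± 5.19 in those of ZR-75-30, which did not differ beyond their spread (adjusted p = 0.617).

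The next question was what high glucose changed within each line. In MDA-MB-175, limma called 6 of 17 epithelial genes (3 higher, 3 lower) and 6 of 25 tested mesenchymal genes (3 higher, 3 lower), beside 25.7% of all genes tested. In ZR-75-30 it called 10 of 17 epithelial genes (4 higher, 6 lower) and 11 of 21 mesenchymal genes (7 higher, 4 lower), beside 46.0% of all genes. In HCC1500 it called 4 of 16 (2 higher, 2 lower) and 8 of 22 (5 higher, 3 lower), beside 20.5%. Without replicate 3 the HCC1500 counts were 11 of 16 (3 higher, 8 lower) and 14 of 21 (6 higher, 8 lower), beside 58.5% of all genes either way and 37.7% lower. Low and high glucose cultures did not overlap for 5 epithelial and 8 mesenchymal genes in MDA-MB-175 (26.6% of all genes tested), 11 and 12 for ZR-75-30 (42.0%), then 6 and 11 for HCC1500 (32.4%). Without replicate 3 the HCC1500 counts were 9 and 16 (58.1%), of which 6 and 8 were lower (37.1%). No line showed a uniform fall of epithelial or rise of mesenchymal genes.

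Medians over the lists stayed close to those of all genes tested. The median log2 change of the epithelial genes was -0.031 for MDA-MB-175 (-0.023 over all genes), -0.014 for ZR-75-30 (0.012 over all genes) and -0.11 for HCC1500 (-0.064 over all genes). Mesenchymal medians were 0.054, -0.046 and -0.00078 in the same order. Leaving out replicate 3 shifted all HCC1500 genes to a median of -0.12, and rescaling each culture by a median of ratios brought that to -0.011. The members then split into 5 higher and 6 lower epithelial calls and 7 higher and 7 lower mesenchymal calls. Changes of HCC1500 without replicate 3 are best read against this shift.

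**Figure D2:**
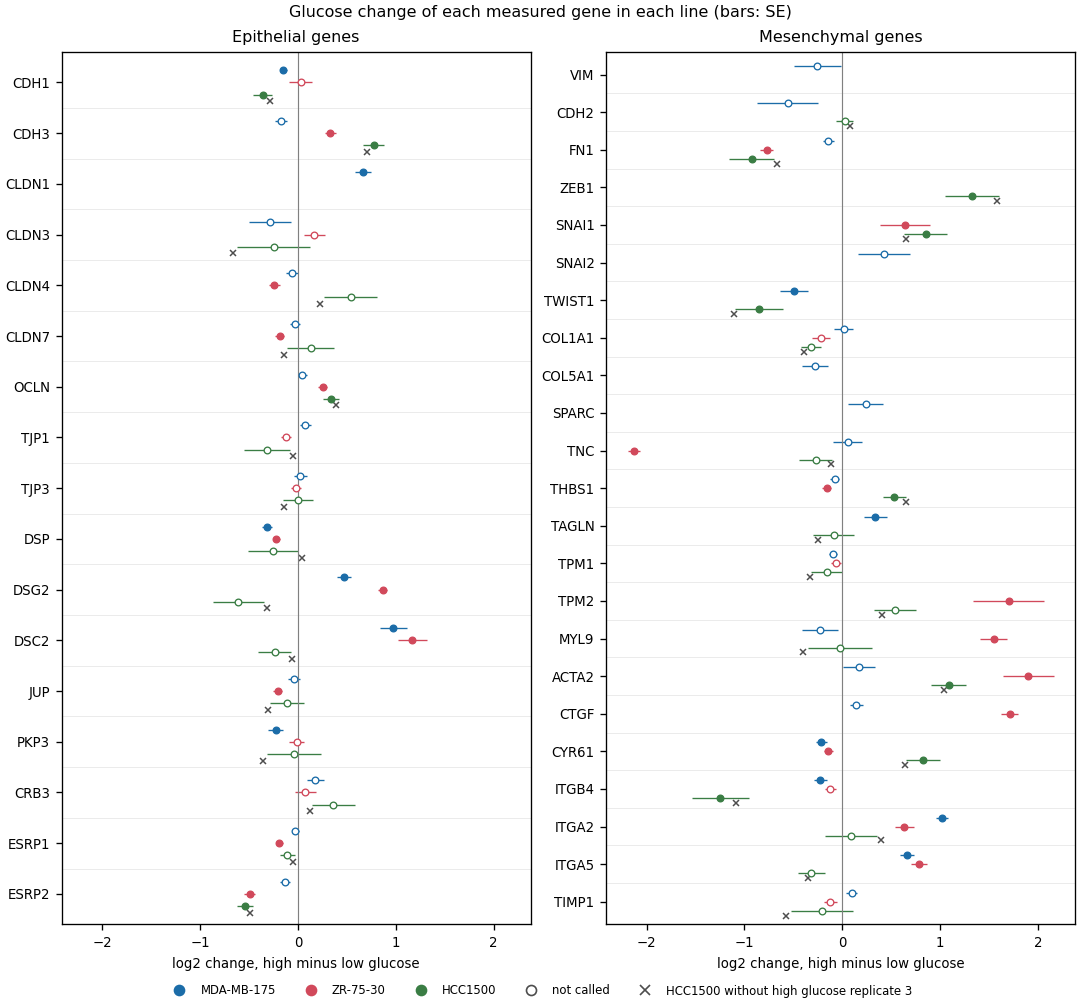
Points give the log2 change (high minus low glucose) of each measured gene in each line with its standard error, filled where the adjusted p was under 0.05, and crosses give the HCC1500 change without high glucose replicate 3. Changes fell on both sides of 0 in both panels, from -2.13 for TNC to 1.90 for ACTA2, both in ZR-75-30.

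E-cadherin fell slightly in the 2 lines that expressed it strongly. In MDA-MB-175, CDH1 read 5731, 6159.5, 5894 and 5692 at high glucose against the low glucose values given above, with no overlap. The log2 change was -0.15 ± 0.038 (SE; limma adjusted p = 0.0085), a fall by 1.11-fold. In HCC1500 the high glucose cultures gave 6772, 6837 and 6704 in replicates 1, 2 and 4 and 5447 in replicate 3, all under the low glucose values of 8166 to 8263. CDH1 there changed by -0.36 ± 0.096 (adjusted p = 0.0302), and by -0.28 ± 0.021 without replicate 3 (adjusted p = 2.69e-09), or -0.16 after median-of-ratios rescaling. edgeR on the recovered reads of all 8 cultures gave an adjusted p of 0.152. ZR-75-30, where CDH1 was already low, had 53.6, 53.3, 61.6 and 57.6 at high glucose, overlapping its low glucose cultures (log2 change 0.028 ± 0.12, adjusted p = 0.874).

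P-cadherin moved the other way in 2 lines. CDH3 rose in HCC1500 from 91.2, 101, 92.4 and 93 to 165, 153 and 146 in replicates 1, 2 and 4 and 186 in replicate 3. These groups did not overlap with or without replicate 3 (log2 change 0.77 ± 0.10, adjusted p = 0.0014, and 0.71 ± 0.073 without it). ZR-75-30 showed a smaller rise, from 362, 369.6, 424 and 379 to 459, 479, 522 and 470.1, again with no overlap (log2 change 0.33 ± 0.056, adjusted p = 8.9e-05). The MDA-MB-175 change of -0.17 ± 0.061 was not called (adjusted p = 0.0506). The change of CDH3 differed between lines by the F test over all 24 cultures (adjusted p = 3.24e-06, and 1.37e-07 without replicate 3).

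Among the 7 tight junction genes, the seal-forming CLDN1 rose in MDA-MB-175. Its high glucose cultures had 122, 125, 114 and 113, all above the low glucose values of 68.9 to 77.3 (log2 change 0.66 ± 0.082, adjusted p = 1.76e-05). The other 6 tight junction genes were not called in that line. In ZR-75-30 the weak CLDN1 values were 3.32, 2.84, 0.57 and 2.29 at low and 4.17, 4.73, 4.67 and 4.11 at high glucose, too few reads for a fold. Per kilobase of exon at low glucose, CLDN4 led the claudins of ZR-75-30 and MDA-MB-175 (943 and 1456 normalized counts per kilobase), and in HCC1500 its 259.9 stood beside 261 for CLDN7. CLDN4 fell in ZR-75-30. There it went from 4549.9, 4505, 4538 and 4125 to 4024, 3917, 3827 and 3253, groups that did not overlap (log2 change -0.24 ± 0.055, adjusted p = 0.00129).

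In HCC1500, replicate 3 weighed on this group. CLDN4 values were 1188, 1204, 1236 and 1256 at low glucose and 1445, 1379 and 1451 in replicates 1, 2 and 4 and 3424 in replicate 3 at high glucose. All high glucose cultures lay above the low ones, but replicate 3 was more than 2-fold over its neighbours. The change was 0.54 ± 0.27 with it (adjusted p = 0.202) and 0.22 ± 0.031 without it (adjusted p = 6.25e-06). CLDN3 went from 115 to 124 at low glucose to 60.2, 90.0 and 76.2 in replicates 1, 2 and 4 and 241 in replicate 3, a change of -0.25 ± 0.37 with it (adjusted p = 0.696) and a fall by 0.67 on the log2 scale without it (adjusted p = 2.69e-05). OCLN (occludin) rose in HCC1500 by 0.34 ± 0.083 (adjusted p = 0.0212; 0.39 ± 0.039 without replicate 3; edgeR with all cultures 0.0576) and in ZR-75-30 by 0.25 ± 0.05 (adjusted p = 0.000387). The scaffold genes TJP1 and TJP3 were called in no line with all cultures. TJP3 and CLDN7, called lower in HCC1500 without replicate 3 (-0.15 and -0.15), were not called after median-of-ratios rescaling (-0.027 and -0.026), and with all cultures their changes were 0.0013 and 0.13.

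Desmosome genes moved in both directions in MDA-MB-175 and ZR-75-30. The desmosomal cadherins DSG2 and DSC2, which bridge neighbouring cells, rose in both lines, while desmoplakin (DSP), which ties the plaque to keratin, fell in both. The plaque genes PKP3 (MDA-MB-175, -0.23 ± 0.076, adjusted p = 0.0369) and JUP (ZR-75-30, -0.21 ± 0.044, adjusted p = 0.000694) were also called lower. In MDA-MB-175, DSC2 went from 25.7, 27.5, 26.8 and 30.5 to 56.2, 45.4, 55.8 and 64.7 and in ZR-75-30 from 23.3, 25, 23.9 and 34.4 to 65.1, 60.1, 64.6 and 52.8. Low and high glucose cultures did not overlap in either line. The fold changes were 2.01 and 2.28 (log2 0.97 ± 0.13 and 1.17 ± 0.15, adjusted p = 5.19e-05 and 4.03e-06). DSC2 shares 554 exon bases with another annotated gene.

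DSG2, which lies on chromosome 18 as DSC2 does, read 140.1, 160.1, 161 and 149.5 at low and 223, 222, 208 and 196 at high glucose in MDA-MB-175. In ZR-75-30 it read 379, 376, 378 and 381 and 742, 663, 676 and 683. Every high glucose culture was above every low one in both lines, by 1.39-fold and 1.82-fold (adjusted p = 9.98e-05 and 3.03e-11). Desmoplakin fell in MDA-MB-175 from 2295, 2466, 2446 and 2471 to 1789, 2139, 1992 and 1862, and in ZR-75-30 from 3502, 3797, 3695 and 3566 to 2948, 3140.4, 3125 and 3296. The groups did not overlap in either line (log2 change -0.32 ± 0.051 and -0.22 ± 0.04, adjusted p = 0.000233 and 0.000164).

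In HCC1500, which had the highest DSG2 and DSC2 values at low glucose, no desmosome gene was called with all 8 cultures. DSG2 read 883, 916, 898 and 915 at low glucose and 662, 775 and 750.1 in replicates 1, 2 and 4 and 317 in replicate 3 at high glucose. The high glucose cultures all lay lower, with replicate 3 far under the others (log2 change -0.61 ± 0.26, adjusted p = 0.136; -0.31 ± 0.044 without it, adjusted p = 7.14e-06). JUP (plakoglobin) and PKP3 (plakophilin 3), plaque proteins that link the cadherins to desmoplakin, were also called lower without replicate 3 (-0.31 ± 0.028 and -0.35 ± 0.061). DSP values there were 4585 to 4755 at low glucose and 4750.3, 4842 and 4772 in replicates 1, 2 and 4 and 2088 in replicate 3 at high glucose, so that its change of -0.25 turned to 0.044 without replicate 3. Neither change was called. Without replicate 3 and after median-of-ratios rescaling, DSP was called higher in HCC1500 (log2 change 0.16, limma adjusted p = 1.01e-05). The change of DSG2 and DSC2 differed between lines (F test adjusted p = 0.000144 and 2.58e-05, or 6.59e-11 and 1.5e-06 without replicate 3), and for HCC1500 minus ZR-75-30 the difference was -1.47 ± 0.24 for DSG2 and -1.41 ± 0.21 for DSC2.

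The promoters of these 3 desmosome genes are shown because the genes moved in opposite directions in the same cultures. Each line gives the 250 bases before the start site, 5′ to 3′ on the gene's strand, from RefSeq in GRCh38.p14, with the E-box CAGGTG or its reverse complement CACCTG in capitals. The windows are chr6:7541421-7541670, plus strand, for DSP, chr18:31497927-31498176, plus strand, for DSG2 and chr18:31102422-31102671, minus strand, for DSC2.
DSP: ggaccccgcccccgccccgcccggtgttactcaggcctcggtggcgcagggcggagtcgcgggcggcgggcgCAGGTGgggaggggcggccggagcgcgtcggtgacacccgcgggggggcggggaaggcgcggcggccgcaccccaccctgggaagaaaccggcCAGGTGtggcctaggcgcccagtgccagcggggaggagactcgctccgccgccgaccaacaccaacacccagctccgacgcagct
DSG2: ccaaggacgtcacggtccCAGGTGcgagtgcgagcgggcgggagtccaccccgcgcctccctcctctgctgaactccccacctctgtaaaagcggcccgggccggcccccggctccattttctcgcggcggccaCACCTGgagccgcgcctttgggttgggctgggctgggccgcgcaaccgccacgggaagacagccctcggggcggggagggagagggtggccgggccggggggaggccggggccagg
DSC2: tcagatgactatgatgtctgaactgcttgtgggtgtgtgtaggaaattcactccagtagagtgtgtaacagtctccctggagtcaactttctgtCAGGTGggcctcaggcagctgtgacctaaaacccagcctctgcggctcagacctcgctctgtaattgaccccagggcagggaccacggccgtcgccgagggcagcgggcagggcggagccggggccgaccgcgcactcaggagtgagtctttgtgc
All 3 windows hold this E-box, with 2 copies each in DSP and DSG2 and 1 in DSC2, whichever way the gene moved. RefSeq windows of 300 bases (250 before and 50 after the start site) were matched for 30 of the 45 genes, and CDH1 was not among them. The E-box was found in 7 of 12 epithelial windows (58.3%), with 5 copies in the polarity gene CRB3, in 1 of 18 mesenchymal windows (5.56%) and in 20.6% of 35116 windows of all genes. A match describes these letters and is not evidence of binding.

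The epithelial splicing regulator ESRP2 fell in 2 lines. ZR-75-30 had 485, 554, 533 and 489 at low and 349, 369.9, 393 and 351 at high glucose, with no overlap (log2 change -0.49 ± 0.055, adjusted p = 6.76e-07). HCC1500 had 1172, 1227, 1159 and 1236 and then 845, 838 and 873 in replicates 1, 2 and 4 and 742 in replicate 3, also without overlap (log2 change -0.54 ± 0.078, adjusted p = 0.00193; -0.49 ± 0.033 without replicate 3). The MDA-MB-175 difference of -0.13 ± 0.049 was not called (adjusted p = 0.054). Its paralog ESRP1 was called lower in ZR-75-30 (-0.19 ± 0.036, adjusted p = 0.000286). CRB3, an apical polarity protein, was called in no line as deposited. In HCC1500 without replicate 3 and after median-of-ratios rescaling it was called higher (log2 change 0.24, limma adjusted p = 0.0152).

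Of the 6 EMT transcription factors, ZEB1 rose in HCC1500 from a low level. ZEB1 (chr10:31607424-31818742, plus strand), a repressor of epithelial genes, read 4.18, 4.13, 3.83 and 4.74 at low glucose and 12.4, 15.9 and 15.7 in replicates 1, 2 and 4 and 6.68 in replicate 3 at high glucose. All high glucose cultures exceeded all low ones, and replicate 3 was the lowest of them. The rise was 3-fold (log2 change 1.33 ± 0.27, adjusted p = 0.0101) and 3.48-fold without replicate 3 (1.58 ± 0.24, adjusted p = 1.9e-05). ZEB1 stayed at or near the floor in MDA-MB-175, with 0.803, 0.67, 0.569 and 1.02 at low and 1.66, 0.568, 1.95 and 1.58 at high glucose, and in ZR-75-30, with 1.11, 0, 0 and 0 and then 1.04, 2.03, 1.7 and 0.685. A difference of its change between lines was not called (F test adjusted p = 0.214, and 0.0432 without replicate 3, which is under the threshold), and it shares 396 exon bases with other genes.

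SNAI1 (Snail), another E-box repressor, rose in HCC1500 from 21.7, 20.6, 15.7 and 21.1 to 31.3, 32.3 and 30.5 in replicates 1, 2 and 4 and 55.7 in replicate 3. The high glucose cultures lay above the low ones, replicate 3 highest (log2 change 0.85 ± 0.22, adjusted p = 0.0266; 0.65 ± 0.16 without replicate 3, adjusted p = 0.00216). ZR-75-30 moved the same way at lower values, from 4.43, 7.39, 6.84 and 6.87 to 8.85, 10.8, 10.2 and 11.7 (log2 change 0.64 ± 0.25, adjusted p = 0.0484, with edgeR at 0.0679). TWIST1 went down instead. It fell in MDA-MB-175 from 33.7, 32.2, 35.9 and 30.0 to 26.6, 21.6, 21.9 and 22.6, with no overlap (log2 change -0.49 ± 0.14, adjusted p = 0.0186).

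For HCC1500, TWIST1 read 35, 34.3, 32.2 and 29.7 and then 15.9, 14.9 and 13.4 in replicates 1, 2 and 4 and 30.4 in replicate 3. Replicate 3 alone reached the low glucose range; the change was -0.85 ± 0.25 with it (adjusted p = 0.0402) and -1.10 ± 0.16 without it (adjusted p = 7.9e-06). TWIST1 was under the floor in ZR-75-30. SNAI2 (Slug) was measurable in MDA-MB-175 alone, where it was not called (6.02 to 7.97 at low and 5.11 to 12.1 at high glucose). Vimentin was not called in any line: at high glucose it read 9.57, 10.8, 13.7 and 11.6 in MDA-MB-175 (log2 change -0.25 ± 0.24, adjusted p = 0.49), while ZR-75-30 had 1.04, 1.35, 0 and 0.685 and HCC1500 0, 0.995 and 0.462 in replicates 1, 2 and 4 and 4.46 in replicate 3. CDH2 in HCC1500 was likewise not called as deposited, at 329, 321 and 333 in replicates 1, 2 and 4 and 281 in replicate 3. Its log2 change was 0.022 ± 0.088 (adjusted p = 0.896), and 0.076 ± 0.049 without replicate 3. Without replicate 3 and after median-of-ratios rescaling, CDH2 there was called higher (log2 change 0.20, limma adjusted p = 0.00229). For MDA-MB-175 its values at high glucose were 7.49, 2.27, 5.47 and 4.21 (adjusted p = 0.206).

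**Figure D3:**
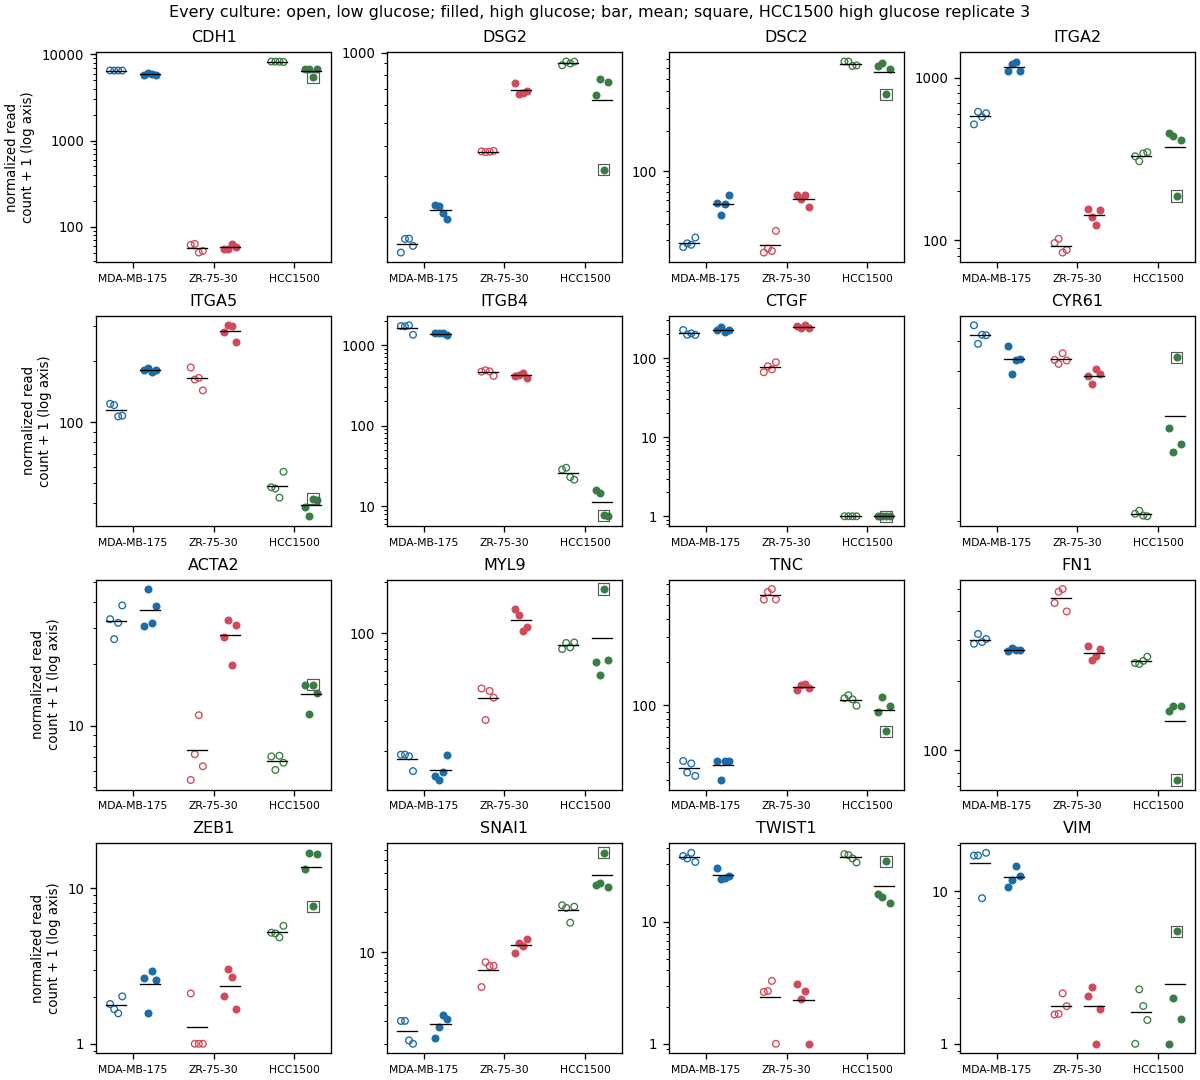
Normalized read count + 1 on a log axis in every culture for 16 genes, open for low and filled for high glucose, with a bar at the group mean and a square around HCC1500 high glucose replicate 3. TNC fell and CTGF, ACTA2 and MYL9 rose in ZR-75-30 with no overlap between conditions, and replicate 3 lay apart from its group in both directions.

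Matrix genes gave the largest fall. TNC (tenascin C; chr9:117781854-117880486, minus strand), a glycoprotein of remodelled matrix, stood at 547, 619, 649 and 549 in ZR-75-30 at low glucose and at 127, 138, 139 and 132 at high glucose. The groups were far apart, a 4.42-fold decrease (log2 change -2.13 ± 0.063, adjusted p = 1.66e-14). MDA-MB-175 had 39.7, 32.8, 38.1 and 31 at low glucose and 39.9, 29, 39.4 and 39.4 at high glucose. HCC1500 had 98.2 to 117 at low glucose and 89.1, 113 and 98.3 in replicates 1, 2 and 4 and 64.6 in replicate 3 at high glucose. Both lines overlapped between conditions and were not called (log2 change 0.054 ± 0.15 and -0.27 ± 0.17, and -0.12 ± 0.09 in HCC1500 without replicate 3). The difference in change was -2.19 ± 0.19 for ZR-75-30 minus MDA-MB-175 (adjusted p = 9.16e-08).

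FN1 (fibronectin) also went down. In ZR-75-30 it fell from 433, 484, 497 and 398 to 283, 244, 255 and 273, with no overlap (log2 change -0.77 ± 0.068, adjusted p = 3.12e-08). HCC1500 read 238, 235, 243 and 253 and then 147, 155 and 155 in replicates 1, 2 and 4 and 73.5 in replicate 3, all lower at high glucose (log2 change -0.93 ± 0.23, adjusted p = 0.0221; -0.67 ± 0.054 without replicate 3, adjusted p = 6.35e-09; edgeR with all cultures 0.0573). In MDA-MB-175 the values of 288, 318, 293 and 302 and 269, 276, 271 and 272 did not overlap either, but the change of -0.14 ± 0.052 was not called (adjusted p = 0.0577). THBS1 (thrombospondin 1) rose in HCC1500 by 0.53 ± 0.12 (adjusted p = 0.0143; 0.65 ± 0.028 without replicate 3) and fell in ZR-75-30 by 0.16 on the log2 scale (adjusted p = 0.00705). COL1A1 was called with all cultures in no line and was lower in HCC1500 without replicate 3 (-0.39 ± 0.061, adjusted p = 2.21e-05). COL5A1 in MDA-MB-175 read 57.8, 49.4, 57.8 and 47.3 at high glucose (adjusted p = 0.14), and SPARC there was not called (adjusted p = 0.371).

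Contractile genes were called higher in ZR-75-30 for 3 of 5 members, beside 23.4% of all genes tested. ACTA2 (smooth muscle actin) went from 4.43, 6.26, 10.3 and 5.34 to 26, 31.7, 18.7 and 30.2, a 4.06-fold rise with no overlap (log2 change 1.90 ± 0.26, adjusted p = 7.98e-06). MYL9, a regulatory myosin light chain, went from 46, 29.6, 44.4 and 40.5 to 137, 126, 102 and 108 (2.94-fold; log2 change 1.54 ± 0.14, adjusted p = 4.04e-08). TPM2, a tropomyosin, read 6.09, 1.14, 5.13 and 4.58 and then 13, 14.9, 9.35 and 24 (log2 change 1.70 ± 0.37, adjusted p = 0.000856), with every high glucose culture above every low one. The tropomyosin TPM1 in ZR-75-30 was not called and TAGLN (transgelin) was too weak there.

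ACTA2 rose in HCC1500 too, from 6.08, 5.08, 6.14 and 5.6 to 14.7, 10.4 and 13.4 in replicates 1, 2 and 4 and 14.9 in replicate 3. The groups did not overlap, and replicate 3 lay with the others (log2 change 1.09 ± 0.18, adjusted p = 0.00371; 1.03 ± 0.24 without it). In MDA-MB-175 ACTA2 overlapped, at 32.1, 25.5, 30.7 and 37.6 and 29.5, 45.4, 30.8 and 37.3 (adjusted p = 0.496). MYL9 in HCC1500 read 79.4, 86.4, 81.3 and 87 and 66.1, 55.7 and 67.9 in replicates 1, 2 and 4 and 181 in replicate 3: its change was -0.023 ± 0.33 with all cultures and -0.40 ± 0.095 without replicate 3 (adjusted p = 0.00146). TPM1 was called lower in HCC1500 without replicate 3 (-0.33 ± 0.048, adjusted p = 1.11e-05). For MDA-MB-175, MYL9 was not called (-0.23 ± 0.19) and TAGLN was called higher (0.34 ± 0.12, adjusted p = 0.0438). ACTA2 shares 2039, TAGLN 3128 and TPM1 3336 exon bases with other annotated genes, which makes their counts uncertain.

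The YAP targets parted from each other. CTGF (chr6:132269316-132272512, minus strand) rose in ZR-75-30 from 65.4, 77.9, 71.2 and 87.8 to 252, 239.6, 259 and 239.9, a 3.28-fold change with widely separated groups (log2 change 1.71 ± 0.086, adjusted p = 2.11e-11). That brought ZR-75-30 up to the MDA-MB-175 range, where CTGF read 226, 197, 205 and 196 at low and 223, 246, 212 and 226 at high glucose and was not called (adjusted p = 0.143). In ZR-75-30 the related CYR61 instead fell slightly, from 534, 521, 556 and 532 to 484, 459.7, 505 and 490.0 (log2 change -0.14 ± 0.045, adjusted p = 0.0122).

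CYR61 also fell in MDA-MB-175, from 659, 589, 622 and 621 to 583, 490.2, 535 and 538, with no overlap in either line (log2 change -0.22 ± 0.055, adjusted p = 0.00821). HCC1500, which had no CTGF reads, raised CYR61 from 209, 212, 206 and 205 to 353, 303 and 319 in replicates 1, 2 and 4 and 543 in replicate 3. All high glucose cultures were higher, replicate 3 most of all (log2 change 0.82 ± 0.17, adjusted p = 0.0108; 0.64 ± 0.055 without it). CYR61 was the 1 member called in all 3 lines with all cultures, and its direction was not the same in them (F test adjusted p = 3.13e-05, or 1.55e-09 without replicate 3). The CTGF difference in change was 1.57 ± 0.14 for ZR-75-30 minus MDA-MB-175 (adjusted p = 1.18e-07).

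CTGF's promoter is shown as the one with the most TEAD-type letters among the matched members. The 250 bases before its start site lie at chr6:131951373-131951622, minus strand, in GRCh38.p14 (RefSeq, under the name CCN2), with GGAATG in capitals.
CTGF: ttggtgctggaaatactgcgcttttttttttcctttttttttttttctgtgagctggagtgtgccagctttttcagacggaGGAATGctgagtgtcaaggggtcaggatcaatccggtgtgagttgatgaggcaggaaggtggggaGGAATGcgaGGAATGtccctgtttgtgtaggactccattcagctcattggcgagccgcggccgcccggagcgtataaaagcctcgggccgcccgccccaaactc
It holds GGAATG at 3 places, starting 169, 104 and 95 bases before the start site. GGAATG or its reverse complement CATTCC was found in 0 of 12 epithelial windows, 5 of 18 mesenchymal windows (CTGF, ITGA5, SPARC, THBS1 and ZEB1; 27.8%) and 14.0% of all windows. Among these 5 genes, CTGF and ITGA5 rose in ZR-75-30 while THBS1 fell there, and SPARC and ZEB1 were under the floor in that line. CYR61 had no matched window and was not searched.

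Integrin genes for collagen and fibronectin receptors rose in 2 lines. ITGA2, the collagen receptor subunit, went from 516, 616, 572 and 604 to 1102, 1209, 1256 and 1098 in MDA-MB-175, a 2.02-fold rise with no overlap (log2 change 1.01 ± 0.06, adjusted p = 4.47e-09). In ZR-75-30 it went from 95.3, 101, 83.2 and 86.3 to 156, 139, 123 and 153 (log2 change 0.63 ± 0.094, adjusted p = 1.97e-05). HCC1500 had 328, 306, 341 and 348 and then 456, 434 and 413 in replicates 1, 2 and 4 and 186 in replicate 3. Replicate 3 alone fell below the low glucose cultures there; the change was 0.09 ± 0.26 with it (adjusted p = 0.852) and 0.39 ± 0.05 without it (adjusted p = 2.23e-06). Without that culture ITGA2 was the 1 member called in the same direction in all 3 lines.

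ITGA5, the fibronectin receptor subunit, rose from 122, 121, 106 and 107 to 181, 185, 175 and 179.8 in MDA-MB-175 and from 186, 162, 165 and 143 to 277, 300.4, 299 and 249 in ZR-75-30. In neither line did the groups overlap (log2 change 0.66 ± 0.072 and 0.78 ± 0.079, adjusted p = 4.68e-06 and 1.93e-07). HCC1500 read lower, from 46.7, 46.1, 41.4 and 56 to 37.2, 33.3 and 40.2 in replicates 1, 2 and 4 and 40.8 in replicate 3, a change that was not called with all cultures (-0.32 ± 0.14, adjusted p = 0.143), was called without replicate 3 (-0.35 ± 0.13, adjusted p = 0.0271) and was not called once rescaled (-0.24, adjusted p = 0.132). The difference in change of HCC1500 minus ZR-75-30 was -1.10 ± 0.14 (adjusted p = 3.09e-06; F test over the lines 2.88e-06, or 2.49e-07 without replicate 3).

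ITGB4 fell in HCC1500 from 27.4, 28.9, 21.9 and 20.2 to 14.7, 13.4 and 6.46 in replicates 1, 2 and 4 and 6.68 in replicate 3. All high glucose cultures were lower (log2 change -1.25 ± 0.29, adjusted p = 0.0174; -1.09 ± 0.24 without replicate 3, adjusted p = 0.000783). In MDA-MB-175 the values of 1719, 1703, 1756 and 1338 and 1399, 1413, 1404 and 1322 overlapped through replicate 4 at low glucose, and the change of -0.23 ± 0.068 was called (adjusted p = 0.0222). TIMP1, the metalloproteinase inhibitor, was not called in any line with all cultures. In HCC1500 it read 277, 293, 299 and 301 and then 199, 189 and 201 in replicates 1, 2 and 4 and 542 in replicate 3, with a change of -0.57 ± 0.051 without replicate 3 (adjusted p = 2.02e-08).

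Between lines, MDA-MB-175 and ZR-75-30 shared 6 called members, all in the same direction (DSC2, DSG2, ITGA2 and ITGA5 higher, DSP and CYR61 lower), of 12 called in the one and 21 in the other. Over all genes, 2762 were called in both of these lines and 2458 of them (89.0%) in the same direction. HCC1500 shared 6 same-direction calls with ZR-75-30 (CDH3, OCLN, SNAI1 and ACTA2 higher, ESRP2 and FN1 lower) and 2 opposite ones (CYR61 and THBS1), of 21 and 12, where 74.0% of all genes called in both had the same direction. With MDA-MB-175 it shared CDH1, ITGB4 and TWIST1, all lower, and CYR61 in opposite directions, of 12 and 12, where the share over all genes was 85.6%. Without replicate 3, HCC1500 and ZR-75-30 shared 15 members of 25 and 21, with 9 in the same direction and 6 opposite (CLDN4, CYR61, DSG2, ITGA5, MYL9 and THBS1), beside 65.8% in the same direction over all genes. Likewise without it, HCC1500 and MDA-MB-175 shared 8 of 25 and 12, with 5 in the same direction and 3 opposite (CYR61, DSG2 and ITGA5), beside 79.4%. The F test called a difference in change for 6 of 17 epithelial genes (CDH1, CDH3, OCLN, DSG2, DSC2 and ESRP2) and 10 of 25 mesenchymal genes, beside 29.3% of all genes tested. Without replicate 3 it called 11 and 14, beside 48.6%. The lowest adjusted p-values belonged to CTGF (5.47e-09), TNC (2.16e-08), ITGA5 (2.88e-06) and CDH3 (3.24e-06).

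Wider lists of the same pathways, 45 further epithelial and 81 further mesenchymal genes in the table, gave the members a context. In MDA-MB-175, 31 of 74 tested mesenchymal companions were called, 28 higher and 3 lower (41.9%, beside 25.7% of all genes), with a median log2 change of 0.22 beside -0.023 over all genes. In ZR-75-30, 32 of 62 were called, 26 higher and 6 lower (51.6%, beside 46.0%), with a median of 0.34 beside 0.012 over all genes. Rescaling each culture to CPM brought that median to 0.18, beside -0.017. HCC1500 had 15 of 59 called (25.4%, beside 20.5%), 5 higher and 10 lower. Without replicate 3 it had 31 of 59 called (52.5%, beside 58.5% of all genes), 8 higher and 23 lower. After median-of-ratios rescaling as well, 28 of 59 were called (47.5%, beside 56.9%), 11 higher and 17 lower. Epithelial companions were called in both directions. For MDA-MB-175, 15 of 44 tested were called (34.1%, beside 25.7% of all genes), 7 higher and 8 lower. For ZR-75-30, 27 of 44 were called (61.4%, beside 46.0%), 18 higher and 9 lower. For HCC1500, 9 of 43 were called (20.9%, beside 20.5%), 3 higher and 6 lower. Leaving out replicate 3 gave 34 of 43 (79.1%, beside 58.5%), 15 higher and 19 lower. After rescaling as well, 32 of 43 were called (74.4%, beside 56.9%), 19 higher and 13 lower.

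Single companions moved more than most members. TGFBI, a secreted adhesion protein, rose in MDA-MB-175 from 31.3, 40.2, 32.5 and 33.6 to 118, 111, 118 and 116 (log2 change 1.73 ± 0.10, adjusted p = 5.62e-09). LUM (lumican), a stromal proteoglycan, rose there from 24.1, 23.5, 19.4 and 20.9 to 67.8, 45.4, 57 and 64.7 (log2 change 1.37 ± 0.15). PLAU, the urokinase, rose by 1.28 ± 0.32, from 3.61, 1.34, 3.99 and 4.07 to 12.1, 5.11, 10.9 and 8.94. Low and high glucose cultures did not overlap for these 3 genes. Plakophilin 1 (PKP1), a desmosome plaque protein, fell in MDA-MB-175 from 61.4, 68.3, 64.3 and 53.4 to 23.7, 27.8, 27.7 and 28.9 and in HCC1500 from 116, 117, 125 and 130.0 to 26, 19.4 and 25.8 in replicates 1, 2 and 4 and 25.2 in replicate 3. That was the largest fall among the companions in HCC1500 (log2 change -2.30 ± 0.13, adjusted p = 3.19e-05; -2.32 ± 0.11 without replicate 3), and replicate 3 lay within its group. COL1A2, a collagen chain, fell in MDA-MB-175 by 0.78 on the log2 scale (adjusted p = 0.00861), from 21.3, 18.8, 18.8 and 16.3 to 9.98, 10.8, 8.2 and 13.7. The laminin chain LAMA3 fell there by 0.43 (adjusted p = 0.00849), from 50.2, 52.3, 53.5 and 53.9 to 40.8, 37.5, 39.4 and 37.3.

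For ZR-75-30, COL7A1 (anchoring fibril collagen) rose from 4.43, 2.27, 3.42 and 1.53 to 14.6, 23, 19.1 and 19.9, with no overlap (log2 change 2.41 ± 0.29, adjusted p = 1.62e-06). COL6A3, a collagen VI chain, rose there by 1.62 ± 0.35 (adjusted p = 0.000847), from 2.77, 3.41, 0.57 and 1.53 to 9.89, 6.75, 7.22 and 7.54. The crosslinking enzyme LOXL1 fell by 0.73 on the log2 scale (adjusted p = 8.2e-08), from 245, 231, 243 and 241 to 151, 152, 149.6 and 126. ITGB6, an epithelial integrin, fell by 0.71 (adjusted p = 4.28e-09), from 398, 411, 399 and 364 to 244, 249.8, 229.9 and 232. The polarity gene PARD6A, which had few reads, fell by 0.74 (adjusted p = 0.0435), from 7.76, 7.39, 8.54 and 7.63 to 5.73, 4.05, 2.55 and 5.48. Low and high glucose cultures did not overlap for any of these 5 companions.

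In HCC1500, LATS2, a kinase of the Hippo pathway, rose from 28.5, 22.6, 28 and 22.4 to 74.9, 58.7 and 71.5 in replicates 1, 2 and 4 and 46.8 in replicate 3 (log2 change 1.26 ± 0.18, adjusted p = 0.00185; 1.40 ± 0.14 without replicate 3). The epithelial factor ELF3 rose by 0.89 ± 0.18 (0.69 without replicate 3), from 581, 654, 589 and 605 to 1051, 935 and 963 in replicates 1, 2 and 4 and 1706 in replicate 3. For the serpin SERPINE2 the rise was 0.80 ± 0.13 (0.69 without it), from 126, 135, 132 and 131 to 221, 214 and 200.3 in replicates 1, 2 and 4 and 293 in replicate 3. Falls were seen for 2 matrix-associated companions besides PKP1. TIMP3, a protease inhibitor, fell from 178, 184, 188 and 174 to 92.6, 71.1 and 91.9 in replicates 1, 2 and 4 and 101 in replicate 3 (log2 change -1.02 ± 0.12; -1.09 without replicate 3). FBLN1 (fibulin 1) fell from 227, 247, 225 and 255 to 107, 127 and 113 in replicates 1, 2 and 4 and 203 in replicate 3 (log2 change -0.83 ± 0.19; -1.04 without it).

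Markers of other cell types were read beside these changes. In bulk RNA, more cells of a type and more RNA per cell cannot be told apart. The summed level of 5 fibroblast markers (PDGFRA, PDGFRB, LUM, DCN and COL3A1) in MDA-MB-175 lay between 31.5 and 35.7 under low glucose and between 59.1 and 91.1 under high glucose, and in HCC1500 between 35.3 and 42.2 and between 53.1 and 62.4. LUM and COL3A1 were the 2 of 5 that averaged 10 reads, and PDGFRA was at most 0.526 in any culture. In ZR-75-30 the sum was at most 1.37. CD68, the 1 leukocyte marker with values here, stood at 4.58 to 6.82 and then 33.6 to 43.9 in ZR-75-30. Epithelial lines also express CD68, and it shares 1852 exon bases with other annotated genes, which makes its counts uncertain. The endothelial markers VWF and CDH5 summed to 61.5 to 77.7 and 57.8 to 70.4 in MDA-MB-175. There VWF lay lower at high glucose (32.1 to 39.2, against 43.2 to 55.6) and CDH5 higher (25.8 to 33.3, against 17.1 to 22.1), each with no overlap. Among basal markers TP63 was at most 15.3 in any culture. The part of these markers in the changes above was not tested.

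The departure of HCC1500 high glucose replicate 3 went with gene length. Among the 33 members measured in HCC1500 that averaged over 10 normalized counts, 12 of 13 with under 5000 exon bases were higher in it than the mean of the other 3 cultures, and 14 of 20 longer ones were lower. CLDN3 was highest against the others (60.2, 90.0 and 76.2 in replicates 1, 2 and 4 and 241 in replicate 3), and ITGA2, DSG2 and DSP were among the lowest. Across the 33 genes Spearman's rho with exon length was -0.81, as a description of genes that share this 1 library.

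**Figure D4:**
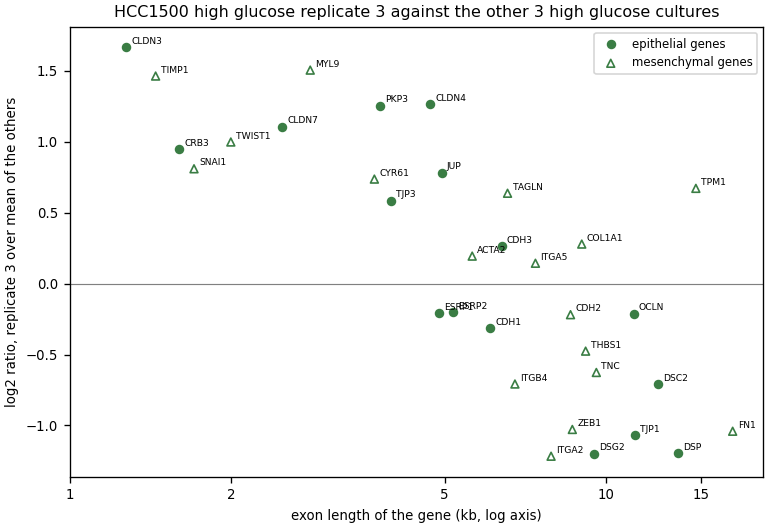
For 33 members, the log2 ratio of HCC1500 high glucose replicate 3 to the mean of the other 3 high glucose cultures is plotted against exon length in kilobases (log axis), with filled circles for epithelial and open triangles for mesenchymal genes. Short genes such as CLDN3, TIMP1 and MYL9 lay above 0 and long ones such as DSP, FN1 and TJP1 below it.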

How the data were processed

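RNA-Seq of 24 cultures (3 lines, 2 glucose conditions, 4 cultures each) was analysed from 1 table deposited by the authors, with 18889 genes. The deposited values are a normalized signal: in every culture all values (100%, within 0.01 of a whole number) are whole reads times 1 factor, and the factor's method is not given in the sources used here. Their sums differ from that of CPM, the unit assumed when the tests were chosen. The submitters' processing notes name hg38 and edgeR. The study's methods, written for tumours, name hg19, TopHat, a stranded mRNA library, DESeq2 for tests and edgeR for normalized counts. Build, counter and strand setting of these values are therefore not settled. Gene positions and exon lengths came from GENCODE release 44 lifted to GRCh37 (96.3% of identifiers matched). In 9 genes whose symbol was split over cells, the value columns were counted back from the last one.

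Values were tested as log2(value + 1) in limma 3.58.1 (R 4.3.3, empirical Bayes with trend) within the 8 cultures of each line. Differences between lines were fitted on the low glucose cultures alone, and differences in the glucose change on all 24 cultures. A fold change on this scale understates the change of weak genes. Only genes reaching 0.5 in 4 or more fitted cultures were tested, and p-values were adjusted (Benjamini-Hochberg) over all of them, two-sided, with 0.05 as the threshold. Fold changes are ratios of group means. Reads recovered from the values were tested with edgeR 4.0.16, which called 4402 genes in MDA-MB-175, 7397 for ZR-75-30 and 3576 for HCC1500, and with DESeq2 1.42.0. The 45 genes, the companion and marker lists and the tests were chosen with earlier results of these data known. Values in every culture are given for CDH1, VIM and ZEB1, for the 4 largest called rises and 4 largest called falls without overlap in each line, for the 4 lowest F test p-values, for the 2 largest differences per pair of lines, and for 3 companion rises and 3 falls per line (1 companion gene is not reported here); other genes were named for a role or for being weak. The fits were tested on simulated data. Counting intervals and floors cover counting error only.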

Additional observations from a re-analysis of the deposited data

Results flagged for a closer look

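In 8 HCC1500 high glucose groups, replicate 3 lay apart from the other 3 cultures, by a gap that was most of the group's range. It was lowest for CDH1 (5447 normalized counts), DSP (2088), FN1 (73.5) and ITGA2 (186), and highest for CLDN4 (3424), MYL9 (181), SNAI1 (55.7) and TWIST1 (30.4). Replicate 4 of MDA-MB-175 at low glucose was the lowest of its group for CLDN4 (5776), COL5A1 (48.8), ITGB4 (1338) and MYL9 (14.2). ITGB4 was also lowest in replicate 4 of that line at high glucose (1322). Replicate 4 of ZR-75-30 at low glucose was lowest for CLDN4 (4125) and highest for DSC2 (34.4). Other MDA-MB-175 values set apart were DSP in low glucose replicate 1 (2295), VIM in low glucose replicate 3 (7.97) and TNC in high glucose replicate 2 (29.0). Chance alone sets apart about 1 in 20 groups of this size. The search took in up to 6 groups for each of the 23 members chosen by the rule, so that some such values arise by chance. The 8 HCC1500 values come from 1 library and are not separate events.

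The glucose change differed between the 3 lines for 13 of the 23 members chosen by the rule for values by culture, beside 29.3% of all genes tested. That rule picked genes by their changes, and 4 of them by this same F test. The count therefore follows in part from the choice and is not a separate result. The limma F test adjusted p was 5.47e-09 for CTGF, 2.16e-08 for TNC, 2.88e-06 for ITGA5 and 3.24e-06 for CDH3. It was 2.58e-05 for DSC2, 3.13e-05 for CYR61, 0.000411 for ACTA2, 0.000571 for MYL9 and 0.0015 for ESRP2. For ITGB4 it was 0.00243, for FN1 0.0153, for CDH1 0.022 and for ITGA2 0.0226.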

How the results depend on the processing

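Alternatives were other pseudocounts, filters, scalings and tools, a fit on all 24 cultures, a length trend removed, a minimum size and each culture left out. Among values of single genes, 1096 stayed on the same side of the threshold with the same direction, 65 lost and 32 gained a call, and 21 changed sign. HCC1500 epithelial calls (4) were 2 under median-of-ratios rescaling, CPM, edgeR, the replicate block and a minimum log2 change of 0.5. Without its high glucose replicate 3, and chosen after seeing the data, they were 11 with median-of-ratios rescaling and 11 with edgeR, mesenchymal calls (8) were 14 in both, and calls of all genes (3350) were 9241 and 9112; differences in change were then called for 10 epithelial genes with edgeR and for 8785 and 8514 of all genes. The fit on all cultures called 2 epithelial, 2 mesenchymal and 2011 of all genes in MDA-MB-175, and 5842 genes in HCC1500. With a minimum of 0.5, MDA-MB-175 had 2, 2 and 1295 calls, and ZR-75-30 had 2 epithelial and 3018 in all. Between lines, a minimum of 1 left 6 epithelial and 5878 genes in all for ZR-75-30 against MDA-MB-175, 10 and 7577 for HCC1500 against MDA-MB-175, and 8005 in all for HCC1500 against ZR-75-30. The cause was not tested.

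Leaving out 1 culture gave 5 to 10 epithelial and 3 to 6 mesenchymal calls in MDA-MB-175 (10 without low glucose replicate 4, 3 without low glucose replicate 3), 10 to 11 and 9 to 11 in ZR-75-30, and 2 to 11 and 4 to 14 in HCC1500 (the highest without high glucose replicate 3, the lowest mesenchymal count without low glucose replicate 1 or 2), where calls of all genes ran from 2015 to 9504. Epithelial calls of a difference in change ran from 5 to 11, mesenchymal ones from 10 to 14 and those of all genes from 4765 to 8809. All log2 changes whose sign turned were uncalled as deposited. CDH1 in ZR-75-30 was -0.0095 by CPM and -0.030 to 0.081 with a culture left out (below 0 in 3 of these), and CDH2 in HCC1500 -0.052 and -0.015 to 0.076. Without replicate 3 and by median-of-ratios, CDH2 in HCC1500 was 0.20 and was called (limma adjusted p = 0.00229). In HCC1500 without replicate 3, DSC2 was 0.057 by median-of-ratios and 0.047 by edgeR, and DSP 0.044 as deposited and 0.16 by both. DSP was called higher by both (limma adjusted p = 1.01e-05, edgeR adjusted p = 1.68e-05). Over all left-out cultures DSP ran from -0.36 to 0.044. With all HCC1500 cultures, MYL9 was 0.029 by median-of-ratios, 0.11 by edgeR and 0.14 by DESeq2. With a culture left out, MYL9 in HCC1500 ran from -0.40 to 0.16 and ITGA2 from -0.035 to 0.39, and TNC in MDA-MB-175 fell to -0.0058.

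The higher share of calls over all HCC1500 genes was 36.4% as deposited, 48.9% by median-of-ratios and 30.1% by CPM. Same-numbered low and high glucose cultures did not deviate together (mean r 0.05 for MDA-MB-175, then 0.04 for ZR-75-30 and 0.02 for HCC1500), so that the numbers were not taken as pairing; with the replicate block, calls of all genes in HCC1500 were 1964.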
